A study of Mus musculus with 6 samples.

Results

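Genes of the formative and primed states of pluripotency, 7 in all, were chosen by name. They were Otx2, Pou3f1, Fgf5, Sox3, Foxd3, Zic2 and Zic5, and 4 of the 7, Otx2, Foxd3, Zic2 and Zic5, were matched by symbol among the 10989 genes of the table. Pou3f1, Fgf5 and Sox3 were not analysed here. Expression was measured by RNA sequencing in MPI-II mouse embryonic stem cells, in 4 Ddx5 knockout libraries (KO lines 1 to 4) and in 2 wild-type libraries (WT replicates 1 and 2). Ddx5 encodes an RNA helicase, also called p68. Each KO line is a single clone, made with a Cas9 nickase and paired guides and selected with G418, and the labels name no such selection for WT. KO and WT cells alike grew on feeder cells and serum, in the presence of a GSK3 inhibitor, the MEK inhibitor PD0325901 and leukemia inhibitory factor. The labels do not say that the WT replicates were separate cultures, so the spread between the WT libraries may be technical. The p-values measure only the spread between these libraries, which in KO is a spread between clones.

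Mouse embryonic stem cells in such inhibitors are held near a naive state. When they leave it, they pass through a formative state, in which naive factors fall and genes such as Otx2, Pou3f1 and Fgf5 come on, before primed cells become able to respond to lineage signals. Otx2 is a homeobox factor that directs Oct4 to new enhancers during this exit. Pou3f1 is a POU factor and Sox3 a SOX factor of epiblast and neural cells, and Fgf5 is a secreted growth factor of the post-implantation epiblast. Foxd3 is a forkhead factor required in pluripotent cells and later in neural crest. Zic2 and Zic5 are zinc-finger factors of epiblast and neural tissue.

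Values are the authors' normalized expression scores, whole numbers in deposited units whose distribution is nearly the same in every library. Library totals, 14718925 to 14722877 in KO and 14612799 and 14708348 in WT, therefore carry no information on read depth, and depth is unknown. WT replicate 2 had 131 genes at 0, and the 5 remaining libraries had 13 to 19 each. The targeted gene Ddx5 lay at 5854, 8450, 12793 and 5659 units in KO lines 1 to 4 and at 36433 and 36436 units in WT. Pou5f1, which encodes Oct4 and defines pluripotent cells, lay at 13545 to 17548 units in KO and at 17548 and 14346 units in WT. Its log2 fold change was 0.02 (adjusted p = 0.937, limma), with the sign turning in 5 of 15 alternative fits. Of the 19 measured feeder fibroblast markers, 18 fell in KO, beside 7.34% of all genes called lower, and none was at 0 in any library. Summed over all 19, the level was 42618 to 46457 units in KO and 96144 and 64498 units in WT. Fn1, the 1 marker that did not fall, lay at 36452 units in each KO line. It lay at 36452 and 29855 units in WT replicates 1 and 2, so Fn1 makes up most of each KO sum. In bulk RNA, fewer cells of a type and less RNA per cell cannot be told apart.

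The sequences upstream of the RefSeq starts (GRCm38.p6, the assembly behind mm10) are shown for Otx2, the member that passed the test, and for Foxd3 and Zic5, which did not. RefSeq windows matched 3 of the 4 measured members, and none is shown for Zic2. Otx2 had 4 windows, and the 2 shown were picked because they hold a match to a motif searched, which the other two do not. Each run is the 250 bases before a start, 5′ to 3′ on the gene's strand. Capitals mark the homeodomain motif TAATCC, bound by OTX factors, or the letters of a TATA box, TATAAA, on either strand and at any distance.
Otx2, upstream start, chr14:48667645-48667894, minus strand: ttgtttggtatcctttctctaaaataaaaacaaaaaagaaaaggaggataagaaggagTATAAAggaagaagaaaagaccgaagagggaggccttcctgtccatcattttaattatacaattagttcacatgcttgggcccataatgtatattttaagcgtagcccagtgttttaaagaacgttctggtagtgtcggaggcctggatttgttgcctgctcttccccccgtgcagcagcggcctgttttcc
Otx2, inner start, chr14:48665110-48665359, minus strand: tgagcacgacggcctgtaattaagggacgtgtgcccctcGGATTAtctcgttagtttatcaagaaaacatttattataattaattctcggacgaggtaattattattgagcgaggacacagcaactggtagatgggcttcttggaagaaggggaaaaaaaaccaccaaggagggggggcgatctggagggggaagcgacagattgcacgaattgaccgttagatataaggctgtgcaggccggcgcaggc
Foxd3, chr4:99656049-99656298, plus strand: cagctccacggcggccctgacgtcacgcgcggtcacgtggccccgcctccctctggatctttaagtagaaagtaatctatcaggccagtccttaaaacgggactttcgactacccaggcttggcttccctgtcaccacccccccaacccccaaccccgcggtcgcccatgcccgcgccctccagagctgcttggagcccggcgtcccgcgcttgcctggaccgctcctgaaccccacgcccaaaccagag
Zic5, chr14:122465659-122465908, minus strand: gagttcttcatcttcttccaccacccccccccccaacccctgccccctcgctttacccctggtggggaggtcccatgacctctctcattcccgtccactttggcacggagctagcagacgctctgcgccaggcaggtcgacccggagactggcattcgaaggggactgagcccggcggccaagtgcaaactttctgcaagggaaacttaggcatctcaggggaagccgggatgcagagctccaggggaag
The inner Otx2 window held 1 TAATCC match on the reverse strand, 211 bases before the start, and 6.25% of all 32817 such windows hold one. The upstream Otx2 window held 1 TATAAA match, 192 bases before the start, and 12.4% of windows hold one. The GC box GGGCGG (in 32.7% of windows), the octamer ATGCNAAT (2.86%), the SOX motif ACAATG (10.7%) and the ZIC motif CCTGCTG (8.45%), searched on both strands, had no match in the 6 windows of the 3 genes. No matches overlapped. GC content was 42.0% and 48.4% in the Otx2 windows shown, 49.2% and 53.6% in the other two, 65.6% at Foxd3 and 62.4% at Zic5, against a median of 52.4% over all windows. A match is a string of letters and no evidence of binding. Each gene has a single value here, so the Otx2 level sums over its starts.

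Otx2 rose in the Ddx5 KO lines. The gene (ENSMUSG00000021848, chromosome 14, 48657677 to 48673819, minus strand, GENCODE M21 on mm10) lay at 788, 618, 437 and 626 units in KO lines 1 to 4, against 156 and 204 units in WT replicates 1 and 2. The lowest KO line was above the higher WT library, and 43.7% of all genes had every KO line on one side of both WT libraries. KO lines averaged 617 ± 143 units (SD, n = 4) and WT 180 ± 33.9 units (SD, n = 2), a ratio of 3.43. The log2 fold change on log2 of the scaled value plus 1 was 1.68 (SE 0.234, 95% interval 1.13 to 2.23, adjusted p = 0.00767, limma). Otx2 was the 1 called gene among the 4 measured factors, beside 17.1% of all genes called and 9.75% called higher. Among the 1071 genes called higher, 95 had a larger log2 fold change. Leaving out any of the 6 libraries kept the call, with log2 changes of 1.50 to 1.86 and adjusted p of 0.0168 to 0.0357. Without WT replicate 2, the log2 change was 1.86 (adjusted p = 0.0208).

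**Figure D1:**
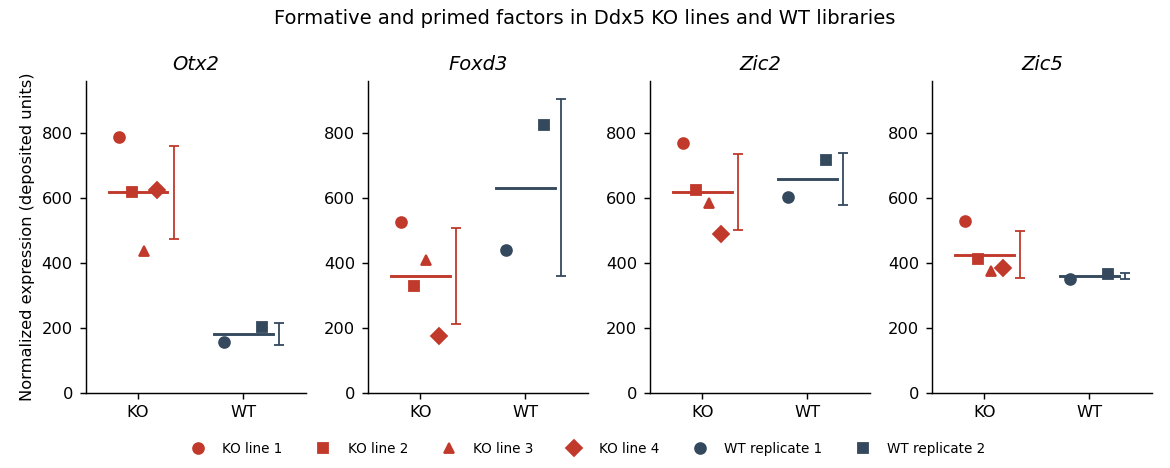
Normalized expression in deposited units (vertical axis, from 0) of the 4 measured factors, with KO lines on the left and WT libraries on the right of each panel. Points are libraries, horizontal lines are group means and vertical bars are SD. Otx2 lies at 437 to 788 units in KO and at 156 and 204 units in WT, while the groups overlap for Foxd3 and Zic2.

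The rank of Otx2 within each library moved with its level. It stood above 61.4%, 54.1%, 43.2% and 54.5% of the listed genes in KO lines 1 to 4, and above 17.2% and 24.1% in WT replicates 1 and 2. A rank inside a library does not depend on how libraries were scaled to each other. Relative to Zic5, a factor on the same chromosome, the within-library ratio of Otx2 was 1.49, 1.50, 1.17 and 1.63 in KO lines 1 to 4 and 0.443 and 0.557 in WT. Relative to Zic2 it was 1.02, 0.987, 0.747 and 1.28 in KO and 0.259 and 0.285 in WT. Neither pair of ratios overlapped between KO and WT. Separation without overlap is common here, as 43.7% of single genes showed it, and its share among ratios was not computed. The ratio of Zic2 to Zic5, neither of which passed the test, did not overlap either (1.28 to 1.56 in KO, 1.71 and 1.96 in WT). Such ratios show unequal change and not which of the genes changed.

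**Figure D2:**
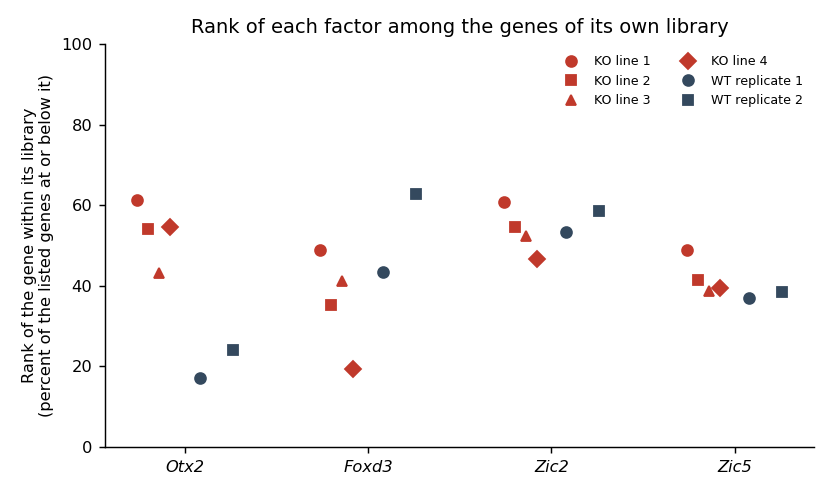
Rank of each factor among all listed genes of its own library, in percent (vertical axis), for KO lines (red, left) and WT libraries (dark, right). Otx2 lies at 43.2% to 61.4% in KO and at 17.2% and 24.1% in WT, and Zic2 and Zic5 stay between 36.9% and 60.7% in every library.

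Foxd3 spread widely among the libraries, and its KO and WT values overlapped. The gene (ENSMUSG00000067261, chromosome 4, 99656299 to 99658622, plus strand) lay at 526, 328, 409 and 174 units in KO lines 1 to 4 and at 440 and 824 units in WT. KO line 1 was above WT replicate 1, and KO line 4 was the lowest library. KO averaged 359 ± 148 units (SD, n = 4) and WT 632 ± 272 units (SD, n = 2). The log2 change was -0.82 (SE 0.432, 95% interval -1.84 to 0.20) and did not pass (adjusted p = 0.216, limma). Without WT replicate 2 it was -0.38 and without WT replicate 1 it was -1.27 (adjusted p = 0.659 and 0.129). The SD of its log2 level among KO lines, 0.649, was larger than that of 97.9% of genes, whose median was 0.145.

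Zic2 and Zic5 are neighbours that are transcribed away from each other, with centres 0.0164 Mb apart on chromosome 14. Zic2 (ENSMUSG00000061524, 122475435 to 122479852, plus strand) lay at 770, 626, 585 and 490 units in KO lines 1 to 4 and at 603 and 716 units in WT. The WT values fell inside the range of the KO lines. Its log2 change was -0.11 (SE 0.184, 95% interval -0.54 to 0.33, adjusted p = 0.712, limma), and without WT replicate 2 the sign turned, to 0.02. Zic5 (ENSMUSG00000041703, 122456795 to 122465677, minus strand) lay at 530, 412, 374 and 384 units in KO and at 352 and 366 units in WT. All 4 KO lines were above both WT libraries, an arrangement that 24.1% of all genes showed. The log2 change of Zic5 was 0.22 (SE 0.162, 95% interval -0.16 to 0.61) and did not pass (adjusted p = 0.365, limma). The intervals of these genes include no change as well as differences of up to 0.54 in size for Zic2 and 0.61 for Zic5. The ratio of Zic2 to Zic5 within a library was 1.45, 1.52, 1.56 and 1.28 in KO and 1.71 and 1.96 in WT.

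The 4 factors had the same highest KO line, which was noticed after their values were seen. Line 1 held the highest KO value of Otx2, Foxd3, Zic2 and Zic5, where line 1 is strictly the highest KO line in 30.7% of all genes. Line 4 held the lowest value of Foxd3 and Zic2, and line 3 that of Otx2 and Zic5. The highest KO line exceeded the lowest 1.80 times for Otx2, 3.02 times for Foxd3, 1.57 times for Zic2 and 1.42 times for Zic5. For Otx2, the SD of the log2 level among KO lines, 0.342, was larger than in 88.1% of genes.

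Levels of different genes were compared per kilobase of annotated exon. In KO, Zic2 averaged 214 units per kilobase, Foxd3 155, Otx2 146 and Zic5 86.9. Over the KO lines, each neighbour in that order overlapped the next, with Otx2 at 104 to 187 and Zic5 at 76.5 to 108 units per kilobase. In WT, Foxd3 averaged 272 units per kilobase, Zic2 229, Zic5 73.4 and Otx2 42.6. Zic5, at 72.0 and 74.9 units per kilobase, was above Otx2, at 37.0 and 48.3, in both WT libraries, and Foxd3 overlapped Zic2. Otx2 thus ranked last of the 4 in WT and the third by mean level in KO. Sox2, a core pluripotency factor, averaged 4327 units per kilobase in KO and 3690 in WT. Exon lengths are those of all annotated transcripts together, so these levels are approximate.

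Of 14 listed paralogs of the 7 factors, Sox1, Sox2 and Sox21 were analysed, all of the family of Sox3, and none passed the test. Sox3 itself was not analysed here. Sox1, a neural factor on chromosome 8, lay at 95, 96, 104 and 120 units in KO and at 64 and 40 units in WT (log2 0.85, SE 0.255, adjusted p = 0.0613, limma). Its KO lines all lay above both WT libraries, as in 24.1% of all genes. Every listed gene reaches 80 units in at least 2 libraries, and Sox1 did so only in KO. It is therefore listed through its KO values, so neither its direction nor this separation is independent of the listing. Sox1 did not pass when any KO line was dropped. The log2 change of Sox1 was 1.11 without WT replicate 1 and 0.58 without WT replicate 2. Fitted without the mean-variance trend of the test, Sox1 passed (adjusted p = 0.0293, limma). The genes of chromosome 8 as a group stood at a median log2 deviation of -0.32 in KO line 1 and -0.34 in WT replicate 1, and at 0.07 to 0.22 in the other 4 libraries. With chromosome medians removed, the log2 change of Sox1 was 0.65 (adjusted p = 0.191). The log2 change of Sox2 was 0.23 (adjusted p = 0.202). Sox21, a SOX factor on chromosome 14, ranged from 50 units in KO line 4 to 384 in KO line 1, around 216 and 306 units in WT (adjusted p = 0.539).

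**Figure D3:**
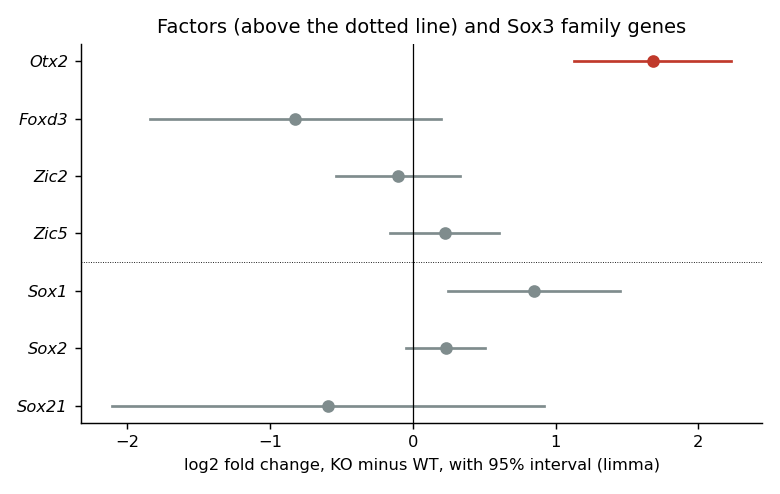
log2 fold change, KO minus WT, with its 95% interval from limma (horizontal axis), for the 4 measured factors above the dotted line and 3 genes of the Sox3 family below it. Red marks a gene that passed at an adjusted p below 0.05, which is Otx2 alone of these 7.

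None of the measured genes beside Otx2 was called higher. The 8 nearest measured genes, 4 on each side within -1.17 to 1.06 Mb, had log2 changes of -0.34 to 0.77 with 4 of them positive. Of these, 1 was called, Exoc5, a subunit of the exocyst that tethers secretory vesicles, which fell by 0.34 (adjusted p = 0.0491, limma). Chromosomes 14 and 4, which carry the 4 factors, had median log2 deviations of -0.05 to 0.05 in the 6 libraries, and with chromosome medians removed Otx2 kept a log2 change of 1.67 (adjusted p = 0.00458). Around Zic2, 1 of 8 neighbours was called, the mitochondrial enzyme Clybl, with a log2 change of 0.99. Next to Foxd3, the glycosylation enzyme Alg6 (0.62) and the sugar phosphate mutase Pgm2 (1.01) were called higher. The exons of Otx2 share 154 of 4221 bases, 3.65%, with the antisense gene Otx2os1, and 168 bases, 3.98%, with Gm49154 on the same strand. Foxd3 shares 89 of 2324 bases, 3.83%, with Gm23366, a microRNA gene on its strand. Use of strand is not given in the sources used here, so reads from those bases cannot be assigned to either gene of a pair.

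**Figure D4:**
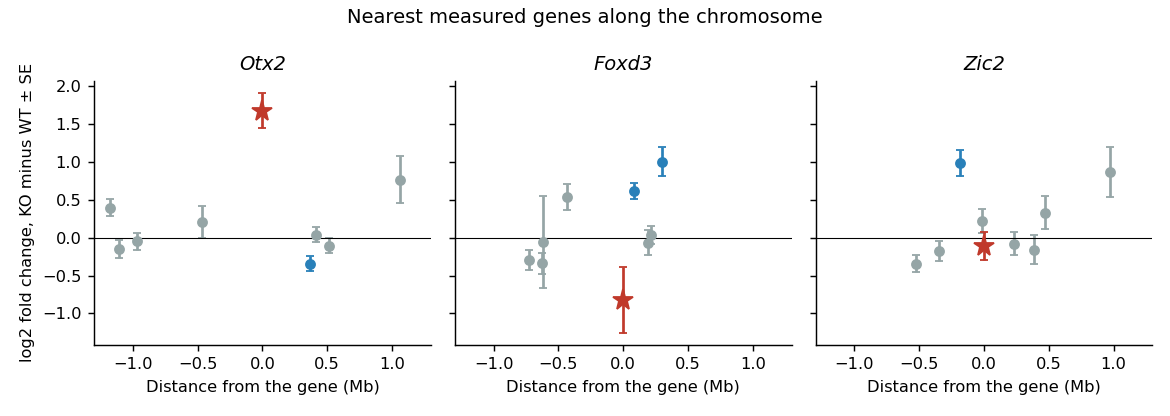
log2 fold change, KO minus WT, with SE bars (vertical axis) against distance in Mb (horizontal axis) for the 8 nearest measured genes around Otx2, Foxd3 and Zic2, which are the stars at distance 0. Blue points passed the test and grey points did not. Otx2, at 1.68, lies above its neighbours, which reach 0.77.

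The genes whose profile over the 6 libraries came nearest to that of Otx2 were Skil, Pfkfb3, Fads6, Dusp9 and Gm1070. Likeness was the root mean square difference of log2 levels, each gene centred on its own mean, and over all genes its median distance to Otx2 was 0.844. Skil, a repressor of TGF-beta signalling, was nearest at 0.182, with 1464, 1348, 1075 and 1392 units in KO and 456 and 525 units in WT. Pfkfb3, an enzyme that drives glycolysis, lay at 0.189 and Fads6, a desaturase family member, at 0.191. Dusp9, a phosphatase of ERK kinases on the X chromosome, lay at 0.198, with 1862, 1590, 1548 and 1972 units in KO and 483 and 697 units in WT. Gm1070, at 0.200, lies on chromosome 6, whose median log2 deviation was 0.42 in KO line 4. Foxd3 was nearest to Tulp4 (0.131) and Cbr3 (0.190), Zic2 to Cndp2 (0.0462) and Cox6b1 (0.0513), and Zic5 to Nsd1 (0.0512) and Twf2 (0.0712). Zic2 and Zic5 were 0.186 apart, and 9.34% of genes were nearer to Zic2. Otx2 was 0.708 from Zic5 and 1.29 from Foxd3, and 21.5% and 95.2% of genes were nearer to Otx2 than these.

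Among other genes of the formative and primed state, 1 rose and 3 fell. Of 26 listed, 22 were measured and 18 did not pass, a called share of 18.2% beside 17.1% of all genes. The median log2 change was -0.06, against 0.04 over all genes. Lin28a, an RNA-binding protein that blocks maturation of let-7 microRNAs, fell to 699 ± 178 units in KO (SD, n = 4), against 2136 ± 220 units in WT (SD, n = 2), with a log2 change of -1.62 (SE 0.219, adjusted p = 0.00753, limma). Dpysl3, a cytoskeletal protein of growing neurites, and the surface glycoprotein Cd24a fell too (log2 -1.36 and -0.95). These 3 calls held with each library left out. Cldn6, a tight junction protein, was the gene that rose, with 70, 82, 55 and 110 units in KO and 20 and 10 units in WT (log2 1.65, adjusted p = 0.0272), and dropping a single library removed its call in 5 of 6 cases (highest adjusted p = 0.0982). Every listed gene reaches 80 units in at least 2 libraries, and Cldn6 did so only in KO lines 2 and 4. It is therefore listed through its KO values, and its direction is not independent of that. The de novo methyltransferase genes Dnmt3a and Dnmt3b, which formative cells express highly, had log2 changes of 0.48 and -0.24 (adjusted p = 0.424 and 0.552). Dnmt3a lay at 1068 to 1398 units in KO, between WT values of 480 and 1518.

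Genes named as fibroblast growth factors or their receptors gave no call in 6 measured genes of 14 listed, beside 17.1% of all genes called. At that share, no call among 6 genes is not a result about this list. Signalling through such receptors drives exit from the naive state, and not every gene named so is a ligand. Fgf4, a ligand of embryonic stem cells, lay at 3455, 3360, 3095 and 3536 units in KO and at 2747 and 2700 units in WT. Its KO lines stood above WT without overlap, as 24.1% of all genes did, and the difference did not pass (log2 0.30, SE 0.0873, adjusted p = 0.0560, limma). The receptor gene Fgfr1 lay at 1580 to 2706 units in KO and at 1588 and 2013 units in WT (log2 0.32, adjusted p = 0.351). Fgfr1 is on chromosome 8, and with chromosome medians removed its log2 change was 0.12. Fgf13 was listed at 0 in WT replicate 2, at 265 units in WT replicate 1 and at 248 to 272 units in KO, and was the 1 gene of the list called without WT replicate 1.

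Among genes known to act in the exit itself, 4 of 22 fell and none rose (median log2 -0.10). The called share, 18.2%, was near the 17.1% of all genes, of which 7.34% were called lower. Flcn and Fnip1 encode folliculin and its partner, a complex that keeps the transcription factor Tfe3 out of the nucleus, and exit is delayed without it. Flcn lay at 796, 718, 694 and 636 units in KO and at 1505 and 979 units in WT (log2 -0.76, SE 0.182, adjusted p = 0.0331, limma). Fnip1 had a log2 change of -0.62 and Tfe3 of -0.63 (adjusted p = 0.0370 and 0.0315). Ptpn11, a phosphatase that passes receptor signals to ERK, fell by 0.48 (adjusted p = 0.0279). Each of these 4 had all KO lines below both WT libraries, as 19.6% of all genes did. Dropping a single library removed the call of Flcn in 5 of 6 cases and of the other three in 4 (highest adjusted p = 0.0972), and without KO line 2 or KO line 3 no gene of the list was called. Tcf7l1, a repressor of naive genes, had a log2 change of 0.22 (adjusted p = 0.204).

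**Figure D5:**
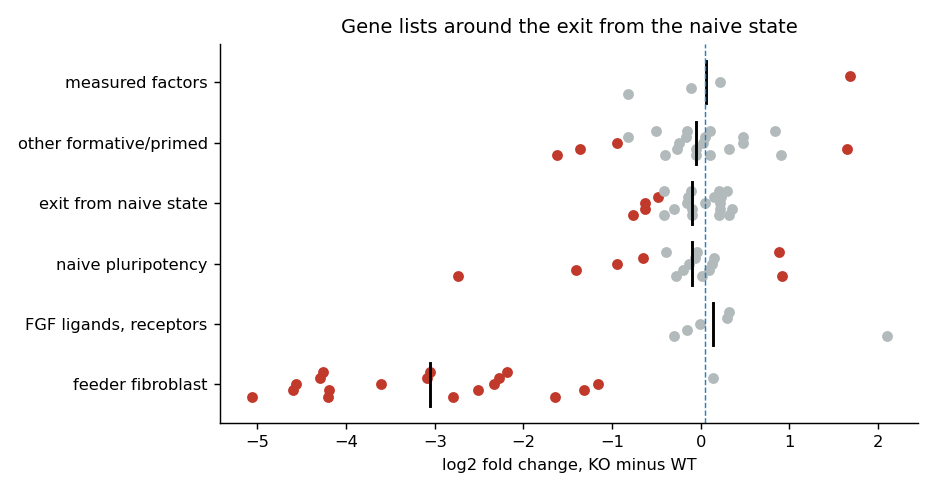
log2 fold change, KO minus WT (horizontal axis), of every measured gene in 6 gene lists. Red points passed at an adjusted p below 0.05, black bars are list medians and the dashed line is the median of all genes, 0.04. Otx2 is the rightmost point of the measured factors, and the feeder fibroblast list lies lowest, at a median of -3.06.

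Naive factors were called in both directions beside Otx2. Of 16 measured of 17 listed, 2 rose and 4 fell, 37.5% called, beside 17.1% of all genes called, 9.75% higher and 7.34% lower. The median log2 change was -0.09. Nanog, a core pluripotency factor, lay at 24055 ± 4349 units in KO (SD, n = 4) and at 12880 ± 965 units in WT (SD, n = 2), and Prdm14, which sustains the naive state, had a log2 change of 0.92. Nanog is on chromosome 6, and its log2 change of 0.89 was 0.71 with chromosome medians removed. The 4 that fell were Gbx2 (log2 -2.74), Nr0b1 (-1.41), Klf4 (-0.94) and Stat3 (-0.65), a homeobox gene, a nuclear receptor, a Kruppel-like factor and the effector of leukemia inhibitory factor. With a library left out, calls were lost in 2 of 6 fits for Nanog, 3 for Nr0b1 and 4 for Prdm14 and Stat3, and in none for Gbx2 and Klf4.

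Few lineage markers were measured, and 17.1% of all genes were called, 9.75% higher and 7.34% lower. Of 17 early neural genes, 4 were measured and none passed. Beside a share of 17.1%, no call among 4 genes is not a result about neural genes. Of 15 primitive streak and mesoderm genes, 1 was measured, Eomes, at 196 to 312 units in KO and 256 and 469 units in WT (log2 -0.45, adjusted p = 0.288, limma). Among 8 neural crest genes, 2 were measured. The neurotrophin receptor gene Ngfr rose (log2 0.53, adjusted p = 0.0259), a call absent in 4 of 6 fits that dropped a library, and Tfap2a did not pass (log2 -0.45, adjusted p = 0.221). The fibroblast markers fell in the same KO lines in which Otx2 was higher, with 18 of 19 called lower, a median log2 change of -3.06 and none at 0. Their part in the Otx2 result was not tested.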

How the data were processed

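RNA was sequenced from 4 Ddx5 KO and 2 WT libraries of mouse embryonic stem cells. Per the submitters' processing notes, build mm10, Bowtie2 2.2.0 and RSEM 1.2.17 were used. What each tool did, and which annotation and normalization were applied, is not given in the sources used here. Named CPM by the authors, the deposited table holds 1 whole number per gene and library for 10989 genes. These deposited values have nearly the same sorted values in every library and were taken as a score on an arbitrary scale. Depth is unknown, and counting intervals are not given. Each gene reaches 80 units in at least 2 libraries, and the 4 measured factors reached it in all 6. A gene that reaches it only in KO or only in WT is listed through that group, so its direction is not independent of the listing. Cldn6, Sox1, Fads6 and Gm1070 reached it in no WT library. Among the fibroblast markers, Col6a1, Col6a2, S100a4 and Ccl2 reached it in no KO line. The test had been set for log2 of a scaled value, and that scale was kept.

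Values were divided by 14.7 units, a pseudocount of 1 was added and log2 taken. A filter of a scaled value of 1 in 2 libraries removed no gene. The KO lines were tested against WT with limma 3.58.1 (R 4.3.3), using a mean-variance trend and no covariate, two-sided, with Benjamini-Hochberg adjustment over all genes, and called at an adjusted p below 0.05. The smallest p that an exact permutation test of these 6 libraries allows is 0.0667. The fit was tested on simulated data. Positions and exon lengths come from GENCODE M21, matched by gene ID for 10941 genes, and upstream sequences from RefSeq (GRCm38.p6). The members, gene lists, tests and alternatives were chosen with earlier results of these data known. Named genes are the members, Ddx5, the paralogs analysed, up to 6 called genes per list, Pou5f1, Sox2, Fgfr1, and the 5 genes nearest to Otx2 and 2 nearest to each other member. Other genes given with a value, among them Fgf4, Fgf13, Dnmt3a, Dnmt3b, Tcf7l1, Eomes, Tfap2a and the chromosomal neighbours, were named after their values were seen. Of the listed genes, 1 is not reported here. Alternatives changed the pseudocount, filter, normalization, variance model and libraries used.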

Additional observations from a re-analysis of the deposited data

Results flagged for a closer look

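Ptpn11 was marked for a closer look because 1 KO line stood apart from the others. KO line 4 lay at 1083 units and KO lines 1 to 3 at 972, 968 and 950, a gap of 0.835 of the range of the 4 lines. WT lay at 1291 and 1494 units, above all 4. Of 36 genes examined in this way, 1 was marked, and chance marks about 1 group in 20.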

How the results depend on the processing

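Otx2 was called in 14 of 15 alternative fits, and its log2 change lay between 1.43 and 1.88. With the replicate number as a block it was 1.88 and lost the call (adjusted p = 0.0691). With the block, 20 genes were called in all, none in the other formative, exit, naive and neural crest lists and 9 among fibroblast markers. The numbers label lines in KO and replicates in WT, and no source says that they pair samples. WT has no replicate 3 or 4, so with the block KO lines 3 and 4 do not enter the estimate. It rests on KO lines 1 and 2 against WT replicates 1 and 2, and little is left to estimate the spread of a gene. Deviations from group means correlated at 0.145 for number 1 and 0.0970 for number 2. Under the block Zic2 turned to 0.0778 and Sox21 to 0.12, and without WT replicate 2 Zic2 turned to 0.0160. Pou5f1, at 0.02 in the reported fit, turned to -0.00993 with trimmed-mean scaling, to -0.00780 with chromosome medians removed, to -0.13 without WT replicate 2 and to -0.02 without KO line 1 or 3. Without the mean-variance trend, 1 paralog and 1 neural gene, Sox1 in each case, were called. With 1 library left out, called genes numbered 472 to 3304 (3304 without WT replicate 1, 472, 572 and 1223 without KO lines 2, 3 and 1), paralogs 0 to 1, fibroblast growth factor genes 0 to 1, other formative genes 3 to 7, exit genes 0 to 4, naive genes 2 to 6, neural genes 0 to 2, neural crest genes 0 to 1, fibroblast markers 14 to 18, and the log2 changes of Otx2 were 1.50 to 1.86, of Foxd3 -1.27 to -0.38, of Zic2 -0.23 to 0.0160, of Zic5 0.11 to 0.28 and of Pou5f1 -0.13 to 0.164. Foxd3, Zic2 and Zic5 passed in none of the 15 fits, and Zic5 stayed positive and Foxd3 negative in each. With 1 WT library left, the lone library is assumed to vary like the KO lines. The causes of these shifts were not tested. Depth is unknown, so the lowest level that could be measured is not given.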
